A study of Mus musculus with 8 samples.

Results

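Cardiac wall-stress and remodelling genes are transcripts that the ventricle is known to change under pressure, stretch or injury, and 10 of them, found by gene symbol, were followed through 8 ventricle libraries. They are Nppb, Acta1, Fhl1, Rcan1, Gdf15, Spp1, Nmrk2, Uck2, Lgals3 and Ctss, and make up 10 of the 38293 genes of the count table. All 10 passed the filter on low counts that left 14567 genes for testing. The libraries came from 4 mouse samples labelled PKP2 c.1755A/WT (HET) and 4 labelled PKP2 WT/WT (WT), each a mixture of left and right ventricle at 8 weeks of age. The title and design of the series give the altered allele as a deletion at that coding position of Pkp2, the gene of the desmosomal protein plakophilin-2, whose loss is a cause of arrhythmogenic cardiomyopathy. No treatment was named for either group. The genotype label itself does not carry the word deletion. Whether each library is a separate animal is not given, so p-values measure the spread between these samples, part of which may be technical.

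When the ventricle is loaded, cardiomyocytes secrete natriuretic peptides such as that encoded by Nppb and return to actin and cytoskeletal genes of the fetal heart, among them Acta1 and Fhl1. Calcium entry activates calcineurin, which acts on NFAT factors, and Rcan1 is a target of that pathway that feeds back on calcineurin. Gdf15 is a stress cytokine, Nmrk2 and Uck2 are kinases that salvage nicotinamide riboside and uridine, and Spp1, Lgals3 and Ctss encode osteopontin, galectin-3 and cathepsin S, which in injured heart come largely from macrophages.

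The sequence before the start of Nppb, Acta1 and Rcan1 is shown because these genes stand for the natriuretic peptide, actin and calcineurin arms of the response to load. Promoters were found for all 10 genes in RefSeq's annotation of GRCm38.p6, and the 250 bases before the RefSeq start are printed 5′ to 3′ on the gene's strand. RefSeq starts can differ from the gene positions given below, which come from GENCODE. The Nppb window runs past the GENCODE start of Nppb at 147985788, so its marked matches lie inside the GENCODE gene. Both Rcan1 windows lie inside the GENCODE bounds of Rcan1 (92391953 to 92470867). Capitals mark matches to motifs that were searched on both strands. GATA factors were searched as AGATAA, and the M-CAT element, which TEAD factors are known to bind, as CATTCC. The TATA box was searched as TATAAA and the CArG box, the site of serum response factor, by its usual pattern. For NFAT the letters searched were GGAAAA, and for the AP-1 factors, which often act beside NFAT, they were TGANTCA. The Nppb window is chr4:147985650-147985899 on the plus strand, that of Acta1 is chr8:123894776-123895025 on the minus strand, and those of Rcan1 are chr16:92466170-92466419 and chr16:92400079-92400328, both on the minus strand.
Nppb: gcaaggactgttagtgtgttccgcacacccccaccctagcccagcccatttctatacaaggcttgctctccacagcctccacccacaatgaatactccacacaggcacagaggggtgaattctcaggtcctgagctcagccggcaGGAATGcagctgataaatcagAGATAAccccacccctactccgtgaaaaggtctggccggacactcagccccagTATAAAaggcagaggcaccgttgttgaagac
Acta1: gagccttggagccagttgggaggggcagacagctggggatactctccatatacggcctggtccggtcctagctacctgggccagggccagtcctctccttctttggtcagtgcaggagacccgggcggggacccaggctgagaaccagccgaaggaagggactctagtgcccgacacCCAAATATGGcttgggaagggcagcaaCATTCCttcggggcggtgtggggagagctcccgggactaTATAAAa
Rcan1, upstream start: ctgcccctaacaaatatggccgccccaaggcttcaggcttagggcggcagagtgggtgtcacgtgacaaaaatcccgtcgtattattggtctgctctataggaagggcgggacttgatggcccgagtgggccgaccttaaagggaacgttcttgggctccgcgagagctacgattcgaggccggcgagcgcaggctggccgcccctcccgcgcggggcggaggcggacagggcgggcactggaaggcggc
Rcan1, downstream start: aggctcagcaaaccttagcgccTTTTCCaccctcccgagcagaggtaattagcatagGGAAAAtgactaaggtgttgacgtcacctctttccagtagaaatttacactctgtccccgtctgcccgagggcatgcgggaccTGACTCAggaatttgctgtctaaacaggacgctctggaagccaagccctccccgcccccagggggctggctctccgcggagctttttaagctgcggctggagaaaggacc
Nppb held 1 GATA, 1 M-CAT and 1 TATA match, and Acta1 held 1 CArG box, 1 M-CAT and 1 TATA match. These motifs were found in 9.97% (GATA), 12.6% (M-CAT), 12.3% (TATA) and 1.48% (CArG box) of 32536 promoter windows of the same length. The downstream start of Rcan1, which gives the form that NFAT is known to induce, held 2 NFAT matches and 1 AP-1 match, and the upstream start held 0 of either. NFAT matches were found in 20.4% and AP-1 matches in 6.73% of the windows. Counted from the RefSeq start, the TATA match of Acta1 lay at -7 to -2 and that of Nppb at -31 to -26. A match describes letters only. Counts per gene do not separate the transcripts of the 2 Rcan1 starts.

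The libraries held 32397302 to 41234883 counts. Pkp2 was at 88.2 to 105.6 CPM (counts scaled to a common library size with edgeR's TMM factors) in HET and at 148.5 to 169.1 CPM in WT, and was the single gene called by the quasi-likelihood test of edgeR, with p adjusted after Benjamini and Hochberg over all genes tested (-0.74 on the log2 scale, SE 0.065, adjusted p = 0.00376). The summed level of 10 cardiomyocyte markers was 77628 to 81208 CPM in HET and 73612 to 78621 CPM in WT. All 14 macrophage markers were detected, and their sum was 401 to 467 CPM in HET and 419 to 605 CPM in WT, with the 605 CPM in WT replicate 3. Of the 8 skeletal muscle markers 2 (Ckm and Tnnt3) passed the filter on low counts, and Myf6 was at 0 counts in all libraries. The skeletal muscle sum was 2640 to 2978 CPM in HET and 2489 to 2787 CPM in WT. Whether that sum comes from skeletal muscle was not tested. Of the 7 adipocyte markers 5 passed the filter, and Lep was at 0 counts in all libraries. The adipocyte sum was 350 to 423 CPM in HET and 360 to 500 CPM in WT. Of the 5 adipocyte markers tested, 3 had a log2 fold change (HET over WT) above 0 and 2 below. These ran from -0.64 to 2.06 with a median of 1.55. None of the 5 was called, and 2 had an unadjusted p below 0.05 by edgeR, both higher in HET, where 2.75% of all genes tested were. The adipocyte sum, which overlapped between the groups, did not follow that median. Levels of the single adipocyte markers are not given here.

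None of the 10 genes differed between the genotypes beyond the spread of the libraries. By edgeR 0 of 10 passed an adjusted p of 0.05, where 0.00686% of all genes tested did, and 0 of 10 had an unadjusted p below 0.05, where 6.38% of all genes did (2.75% higher and 3.63% lower in HET). DESeq2 and limma-voom also called 0 of the 10, and 0 at an unadjusted p. The HET and WT libraries overlapped for each of the 10, while they were apart for 3.78% of all genes tested. The log2 fold changes (HET over WT) ran from -0.31 to 0.18, with 4 above 0 and 6 below and a median of -0.10, beside a median of -0.00 and 48.5% above 0 over all genes. Single WT libraries moved this balance. Without WT replicate 1, 6 of the 10 were above 0 (median 0.06), without WT replicate 2 only 1 was (median -0.27), and without WT replicate 3 there were 5 (median -0.03). Adjusted p-values were 0.807 (Nppb) to 0.990 (Uck2) by the same edgeR test. In bulk tissue, fewer cells of a type and less RNA per cell cannot be told apart. Intervals varied widely in width. Fhl1 in HET stood at 105.4% of its WT level with a 95% interval of 95.5% to 116.3%, while the interval of Acta1 ran from 30.1% to 292.6%, so that even a large change of Acta1 was not detectable with these libraries.

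**Figure D1:**
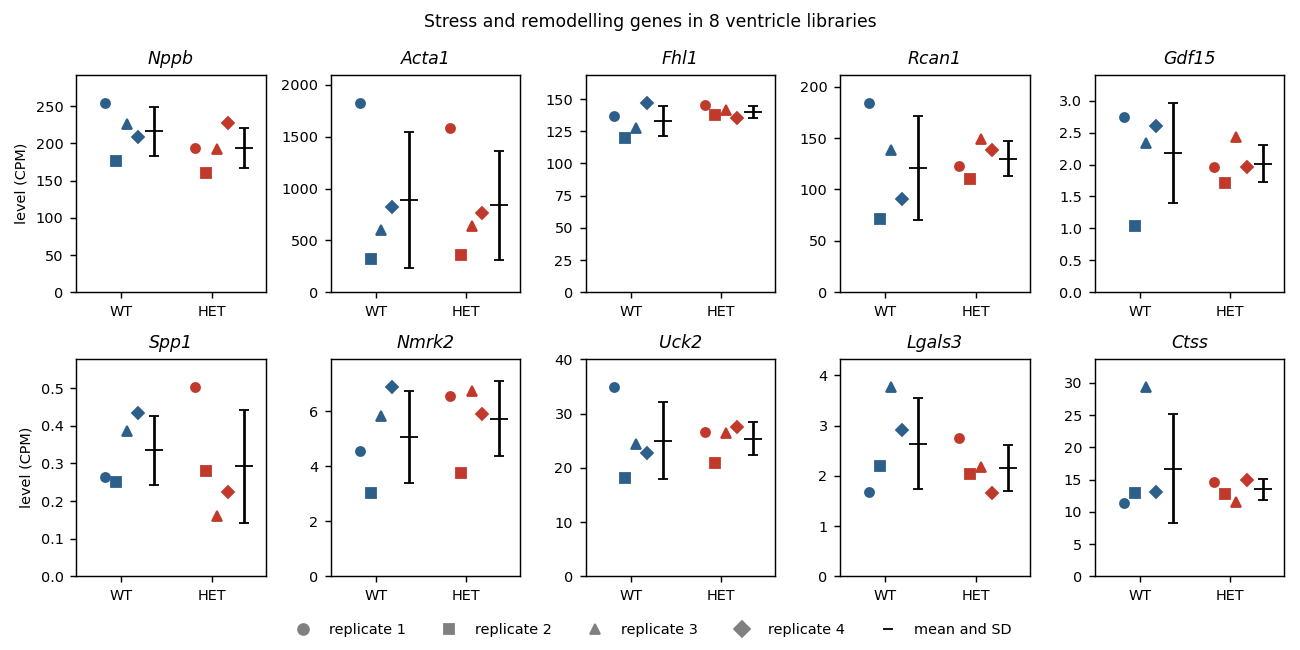
Level of each of the 10 genes in CPM (vertical axis, from 0, its own scale in each panel) in the 4 WT (blue) and 4 HET (red) libraries, with the replicate shown by the symbol and the mean and SD in black. The groups overlap in every panel, and Acta1 runs from 318.1 to 1826 CPM within WT alone.

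**Figure D2:**
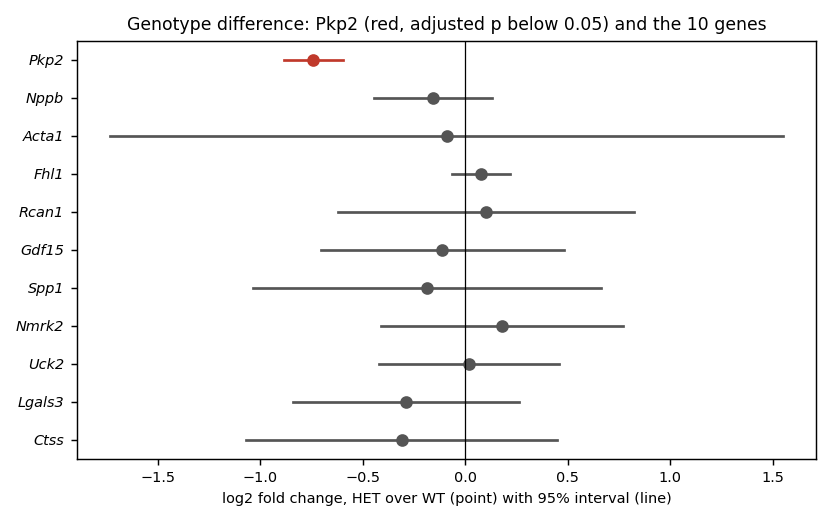
Log2 fold change of HET over WT (point) with its 95% interval (line) from the edgeR fit, for Pkp2 and the 10 genes. The interval of Pkp2 lies wholly below 0 and the other 10 include 0, with the widest for Acta1 (-1.73 to 1.55) and the narrowest for Fhl1 (-0.07 to 0.22).

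The levels covered a wide range. Per kilobase of merged exon (CPM per kilobase, the scale on which genes of unlike length can be set side by side), the HET means were 545.5 for Acta1, 247.9 for Nppb, 42.2 for Rcan1 and 37.7 for Fhl1. Next came Ctss at 9.91, Uck2 at 4.64, Nmrk2 at 3.10, Lgals3 at 1.16 and Gdf15 at 1.09, with Spp1 last at 0.177. The WT means were in the same order, from 581.1 for Acta1 to 0.203 for Spp1. Acta1 and Nppb overlapped across libraries, as did Rcan1 and Fhl1, Uck2 and Nmrk2, Nmrk2 and Lgals3, and Lgals3 and Gdf15. Ctss (8.42 to 21.6 over all libraries) lay apart from Rcan1 and Fhl1 above it and from Uck2 below it, and Spp1 (0.0971 to 0.305) lay below every library of Gdf15 (0.557 to 1.48).

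Nppb encodes the precursor of brain natriuretic peptide, the standard blood marker of wall stress (ENSMUSG00000029019; chromosome 4, 147985788 to 147987205, plus strand, GRCm38). It stood at 193.7, 160.5, 193.0 and 227.3 CPM in HET replicates 1 to 4 and at 254.4, 176.1, 225.6 and 208.8 CPM in WT replicates 1 to 4. The lowest library was a HET and the highest a WT library, and the ranges overlapped over most of their length. Nppb averaged 193.6 ± 27.3 and 216.2 ± 32.7 CPM in HET and WT (SD, n = 4 each), and the log2 fold change was -0.16 (95% interval -0.45 to 0.13). An exact two-sided permutation test gave p = 0.343, where 0.0286 is the smallest that 4 against 4 libraries can give. Nppa, which encodes the atrial peptide, was at 298.7 ± 110.1 and 307.6 ± 36.2 CPM, with 461.3 CPM in HET replicate 1 and 217.9 to 259.1 in the other HET libraries. HET replicate 1, highest in Nppa, was not high in Nppb, so the ratio of Nppb to Nppa counts was lowest there (0.420) and ran from 0.50 to 0.947 elsewhere. Of the 8 tested genes of the natriuretic system (peptides, receptors and processing enzymes) 0 were called and the median log2 fold change was 0.04. The 2 of smallest p were Furin, a protease that cleaves the precursor (0.13, SE 0.065), and the clearance receptor Npr3 (-0.25, SE 0.125), both with an adjusted p of 0.770 by edgeR.

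Acta1 encodes skeletal muscle alpha-actin, which the adult ventricle replaces largely by cardiac actin and expresses again under load (ENSMUSG00000031972; chromosome 8, 123891769 to 123894751, minus strand). It was at 1588, 354.9, 641.9 and 766.3 CPM in HET replicates 1 to 4 and at 1826, 318.1, 600.5 and 825.3 CPM in WT replicates 1 to 4. Replicate 1 of each genotype was high and replicate 2 of each was low, although the replicate numbers follow the order of deposition and pair nothing. The range was 4.48-fold within HET and 5.74-fold within WT, against a log2 fold change between genotypes of -0.09 (SE 0.676). Without WT replicate 1 that value was 0.53 and without HET replicate 1 it was -0.60, so single libraries set its sign, which also turned without HET replicate 2 (0.16) or HET replicate 3 (0.02). Actc1, the cardiac actin gene, varied little (12075 to 14780 CPM in HET and 12352 to 14315 in WT). Per length, Acta1 made up 2.94% to 10.2% of the sum of both actins in HET and 2.61% to 13.5% in WT, and the group means were 6.08% ± 3.01 and 6.6% ± 4.76 (SD, n = 4 each; exact two-sided permutation p = 0.886). Of the 50-base words of the longest Acta1 transcript 2.22% also stand in transcripts of other genes. Among these are the cytoplasmic actin genes Actb and Actg1 and predicted genes whose type was not examined. None of the words stand in Actc1, so shared words are a small part of the Acta1 sequence at that length. Myh7, the slow myosin gene, was at 61.4 to 89.6 CPM in HET replicates 1 and 4 and WT replicates 1 and 4 and at 974.7 to 1093 CPM in the other 4 libraries. Acta1 was at 766.3 to 1826 CPM in the 4 libraries of low Myh7 and at 318.1 to 641.9 CPM in the 4 of high Myh7. This relation was seen in the values and was not tested.

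Fhl1 encodes a LIM-domain protein of the sarcomere that takes part in sensing stretch (ENSMUSG00000023092; chromosome X, 56731787 to 56793346, plus strand). It was the steadiest of the 10, at 145.4, 137.7, 141.5 and 135.1 CPM in HET and 136.8, 119.7, 127.4 and 147.0 CPM in WT. All 4 HET values lay inside the WT range. Fhl1 averaged 139.9 ± 4.5 and 132.7 ± 11.8 CPM in HET and WT (SD, n = 4 each), and the log2 fold change was 0.08 (95% interval -0.07 to 0.22; exact two-sided permutation p = 0.343). Fhl2, which encodes a related protein of cardiac muscle, was at 1763 ± 100 and 1706 ± 63 CPM. The count ratio of Fhl1 to Fhl2 was 0.0695 to 0.0836 over the 8 libraries, the narrowest of the 8 ratios examined. Of 16 tested genes of the sarcomere and Z-disc known to respond to load 0 were called (median log2 fold change -0.06). The 2 of smallest p were Myl4, the atrial light chain (-0.49, SE 0.204), and Fhl3 (-0.18, SE 0.164), with adjusted p-values of 0.770 and 0.830 by edgeR.

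Rcan1 encodes regulator of calcineurin (ENSMUSG00000022951; chromosome 16, 92391953 to 92470867, minus strand), on the chromosome that also carries Pkp2. It was at 123.0, 110.4, 148.7 and 138.2 CPM in HET and at 184.2, 71.5, 138.8 and 90.5 CPM in WT. The WT libraries held both the highest and the lowest value and all 4 HET values lay between them. The WT range was 2.57-fold and the HET range 1.35-fold. A difference in spread between the genotypes was not tested. The log2 fold change was 0.10 (95% interval -0.62 to 0.82; exact two-sided permutation p = 0.571), and leaving out WT replicates 1, 2 and 4 in turn gave 0.38, -0.08 and -0.02. Rcan2, its paralogue, was steady at 531.9 ± 25.9 and 496.8 ± 23.5 CPM. Of 18 calcineurin and NFAT genes 0 were called, with 11 log2 fold changes above 0 and a median of 0.02. The 2 of smallest p were the transcription factor gene Camta2 (0.09, SE 0.043) and the calcineurin catalytic subunit gene Ppp3cb (0.09, SE 0.045). Both had an adjusted p of 0.770 by edgeR. Each was higher in all 4 HET than in all 4 WT libraries, where the groups were apart for 3.78% of all genes tested. Genes picked for a small p tend to be apart, so this adds no support.

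Gdf15 encodes a circulating cytokine of cell stress (ENSMUSG00000038508; chromosome 8, 70629393 to 70632456, minus strand) and was weakly expressed, with 41 to 114 counts per library. Its levels were 1.96, 1.72, 2.43 and 1.96 CPM in HET and 2.74, 1.03, 2.34 and 2.61 CPM in WT. WT replicate 2 stood below the other 7 libraries. The log2 fold change was -0.11 (95% interval -0.71 to 0.48), -0.34 without WT replicate 2 and 0.02 without WT replicate 1, and the exact two-sided permutation p was 0.971. Of 16 tested genes of the integrated stress response and other regulators linked with Gdf15, 0 were called (6 above 0, median log2 fold change -0.05), and 4 had an unadjusted p below 0.05 by edgeR (1 higher and 3 lower in HET), beside 6.38% of all genes. The same count was 3 of 16 in the cathepsin list (1 higher, 2 lower) and 2 of 18 in the pyrimidine list (both lower). It was 1, lower in HET, in each of the sarcomere, osteopontin and galectin lists, and 0 in the natriuretic, calcineurin and NAD lists. Trib3, a pseudokinase gene of that response, averaged 2.51 ± 0.34 CPM over HET and 3.52 ± 0.56 CPM over WT libraries (-0.49 on the log2 scale, SE 0.155), and Chac1, which degrades glutathione, at 9.62 ± 2.30 and 6.09 ± 1.57 CPM (0.66, SE 0.207). Both are induced by the same factors in textbook accounts and had the opposite sign here, and neither passed (adjusted p = 0.770 by edgeR).

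Nmrk2 encodes the muscle form of nicotinamide riboside kinase, which makes NAD and is known to be induced in failing heart (ENSMUSG00000004939; chromosome 10, 81198170 to 81202051, minus strand). It was at 6.54, 3.78, 6.74 and 5.89 CPM in HET and 4.57, 3.02, 5.85 and 6.89 CPM in WT, low in replicate 2 of each genotype. Nmrk2 averaged 5.74 ± 1.36 and 5.08 ± 1.67 CPM in HET and WT (SD, n = 4 each), and the log2 fold change was 0.18 (95% interval -0.41 to 0.77; exact two-sided permutation p = 0.60). The value was -0.00 without WT replicate 2 and 0.36 without WT replicate 4. These counts are uncertain, since exons of Nmrk2 overlap those of the antisense gene Atcayos and the strand setting of the counting is not given in the sources used here. For Atcayos, named here with its values already known, the range was 41.6 to 60.4 CPM in HET and 52.3 to 93.3 CPM in WT. Its highest value was in WT replicate 2, where Nmrk2 was lowest. Nmrk1, the other kinase of this kind, was at 4.09 ± 0.21 and 4.25 ± 0.64 CPM, and the count ratio of Nmrk2 to Nmrk1 ran from 0.592 to 1.92. Of 18 genes of NAD synthesis and use 0 were called (11 above 0, median log2 fold change 0.05). The 2 of smallest p were Nmnat1, the nuclear enzyme of the last step (0.15, SE 0.068), and the mitochondrial NAD kinase gene Nadk2 (0.14, SE 0.068), both with an adjusted p of 0.770 by edgeR.

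Uck2 encodes the uridine-cytidine kinase of pyrimidine salvage (ENSMUSG00000026558; chromosome 1, 167222883 to 167285320, minus strand). It was at 26.5, 20.9, 26.5 and 27.5 CPM in HET and at 34.9, 18.1, 24.4 and 22.7 CPM in WT. The WT libraries again held the highest and the lowest value. Uck2 averaged 25.4 ± 3.0 and 25.03 ± 7.1 CPM in HET and WT (SD, n = 4 each), and the log2 fold change was 0.02 (95% interval -0.42 to 0.46; exact two-sided permutation p = 0.857), with a sign that turned with library-size scaling (-0.02). Uck1, its paralogue, stayed at 14.1 to 15.5 CPM in all 8 libraries, and the count ratio of Uck2 to Uck1 was 1.23 to 2.47. Of 18 genes of pyrimidine salvage and synthesis 0 were called (8 above 0, median log2 fold change -0.02). The deaminase gene Dctd (-0.62, SE 0.216) and the thymidine kinase gene Tk1 (-0.52, SE 0.220), which is active in dividing cells, had the smallest p and did not pass (adjusted p = 0.770 by edgeR).

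Spp1 encodes osteopontin, a secreted matrix protein of wounds and activated macrophages (ENSMUSG00000029304; chromosome 5, 104435118 to 104441050, plus strand), and had few counts in both genotypes. Its exons overlap those of Gm42793 on the same strand by 309 bases, and Gm42793 is not in the count table. Spp1 had 19, 9, 6 and 8 counts in HET and 11, 10, 16 and 17 counts in WT, or 0.160 to 0.503 CPM. The lowest count of 6 has an exact 95% Poisson interval of 2.20 to 13.1 and the highest of 19 one of 11.4 to 29.7, which cover counting error only and overlap. The log2 fold change was -0.19 (95% interval -1.03 to 0.66), -0.60 without HET replicate 1 and 0.02 without HET replicate 3. Of 19 osteopontin receptor and matricellular genes 0 were called (10 above 0, median log2 fold change 0.02). Cd44, a receptor of osteopontin, had HET libraries at 8.56 to 9.62 and WT libraries at 9.66 to 14.1 CPM (-0.27, SE 0.118). The integrin gene Itgb1 was at 417 ± 16 and 396 ± 10 CPM (0.08, SE 0.045). Both genes had an adjusted p of 0.770 by edgeR. The groups were apart for 3.78% of all genes tested, and Cd44 was picked for a small p, so its separation adds no support.

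Lgals3 encodes galectin-3, a lectin of activated macrophages used as a blood marker of cardiac fibrosis (ENSMUSG00000050335; chromosome 14, 47367751 to 47386160, plus strand). It was at 2.76, 2.03, 2.19 and 1.66 CPM in HET and 1.68, 2.19, 3.77 and 2.92 CPM in WT. WT replicate 3 was highest, and HET replicate 4 and WT replicate 1 were lowest. Lgals3 averaged 2.16 ± 0.46 and 2.64 ± 0.91 CPM in HET and WT (SD, n = 4 each), and the log2 fold change was -0.29 (95% interval -0.84 to 0.26; exact two-sided permutation p = 0.343), or -0.07 without WT replicate 3. Of 5 tested genes of other galectins and of the galectin-3 binding protein 0 were called and 4 were below 0 (median log2 fold change -0.27). The median was -0.38, -0.02 and -0.09 on leaving out WT replicates 1, 2 and 3 in turn. Lgals9 was at -0.33 (SE 0.117, adjusted p = 0.770 by edgeR). Lgals3bp, the gene of the binding protein, which interferon is known to induce, was at 126.4 CPM in WT replicate 3, at 44.8 to 51.2 CPM in the other WT libraries and at 33.1 to 53.0 CPM in HET.

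Ctss encodes cathepsin S, a lysosomal protease of antigen-presenting cells (ENSMUSG00000038642; chromosome 3, 95526786 to 95556403, plus strand). It was at 14.7, 12.7, 11.5 and 14.9 CPM in HET and at 11.4, 12.9, 29.4 and 13.1 CPM in WT. WT replicate 3 stood above all others, and the other 3 WT libraries lay in or next to the HET range. The log2 fold change of -0.31 (95% interval -1.07 to 0.45; exact two-sided permutation p = 0.80) became 0.11 without WT replicate 3. The macrophage gene Adgre1 was also highest in WT replicate 3, at 14.6 CPM against 8.99 to 10.2 in the other WT libraries and 9.64 to 11.1 in HET. A log2 fold change below 0 was found for 13 of 14 macrophage markers, beside 7499 of all 14567 genes tested. Their count without WT replicate 3 was not examined. Some other marker lists also leaned to one side, with 9 of 10 cardiomyocyte and 5 of 5 erythrocyte genes above 0 and 7 of 8 fibroblast genes below. Per Adgre1 count, Ctss was at 2.01 in WT replicate 3 and at 1.05 to 1.44 in the other 7 libraries. Ctss was thus higher there also relative to Adgre1. For Lgals3 the same ratio was 0.258 in WT replicate 3, inside the range of the others (0.151 to 0.286). The part of macrophage content in these values was not tested. Of 16 cathepsin and cystatin genes 0 were called (8 above 0, median log2 fold change 0.01). The 2 of smallest p were Ctso (-0.40, SE 0.148) and Ctsd, cathepsin D (0.11, SE 0.044), both with an adjusted p of 0.770 by edgeR. The 4 HET libraries of Ctsd (1180 to 1246 CPM) lay above the 4 WT libraries (1073 to 1173 CPM). The groups were apart for 3.78% of all genes tested, and Ctsd was picked for a small p, so this adds no support.

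Most of these genes varied widely between libraries of one genotype. The SD of log2 CPM about the group means was 0.97 for Acta1, larger than that of 99.8% of the 500 genes nearest to it in mean level, whose median SD was 0.08. The same percentile was 98.6 for Rcan1 (SD 0.45), 98.2 for Ctss (0.46), 96.2 for Uck2 (0.31), 95.8 for Nmrk2 (0.45), 94.0 for Nppb (0.21), 92.4 for Gdf15 (0.48) and 89.4 for Lgals3 (0.41). Fhl1 (0.10) and Spp1 (0.48) lay nearer the middle, at percentiles of 63.4 and 56.4. These percentiles describe the 8 libraries and carry no test.

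**Figure D3:**
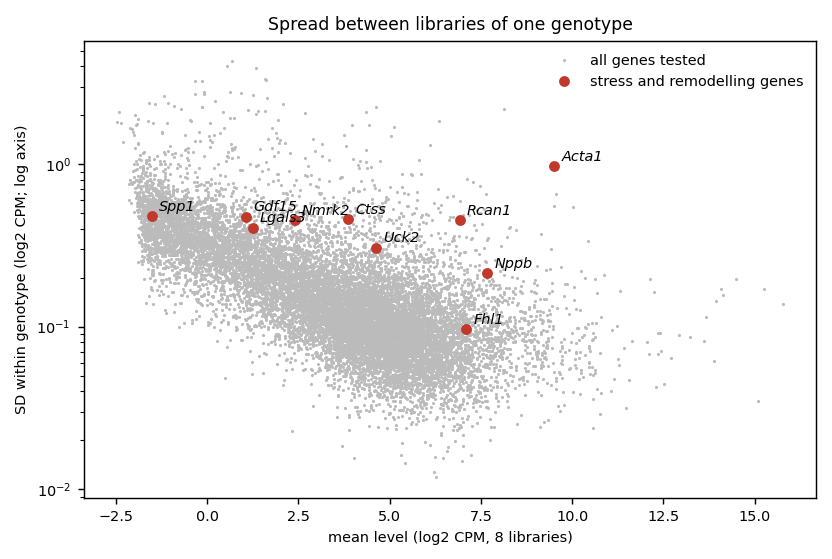
SD of log2 CPM within genotype (vertical, log axis) against mean log2 CPM (horizontal) for all 14567 genes tested (grey) and the 10 genes (red). Acta1 (SD 0.97) stands far above genes of its level, while Fhl1 (0.10) and Spp1 (0.48) lie within the grey band.

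The same libraries were often the extremes. WT replicate 1 was the highest of the 8 libraries for 5 genes (Nppb, Acta1, Rcan1, Gdf15 and Uck2), where it was highest for 11.3% of all genes tested. WT replicate 2 was the lowest for 6 (Acta1, Fhl1, Rcan1, Gdf15, Nmrk2 and Uck2), where it was lowest for 15.9% of all genes. Acta1, Rcan1, Gdf15 and Uck2 were highest in the first and lowest in the second of these, a pattern that 2.39% of all genes shared. WT replicate 3 was highest for Lgals3 and Ctss, and Spp1 was highest in HET replicate 1. Beside the pattern of those 4 genes, the summed level of 8 endothelial markers was 1367 CPM in WT replicate 1 and 1136 CPM in WT replicate 2, that of cardiomyocyte markers 74090 and 78621 CPM, that of erythrocyte genes 340 and 211 CPM and that of adipocyte markers 378 and 500 CPM. The part of these in the pattern was not tested.

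**Figure D4:**
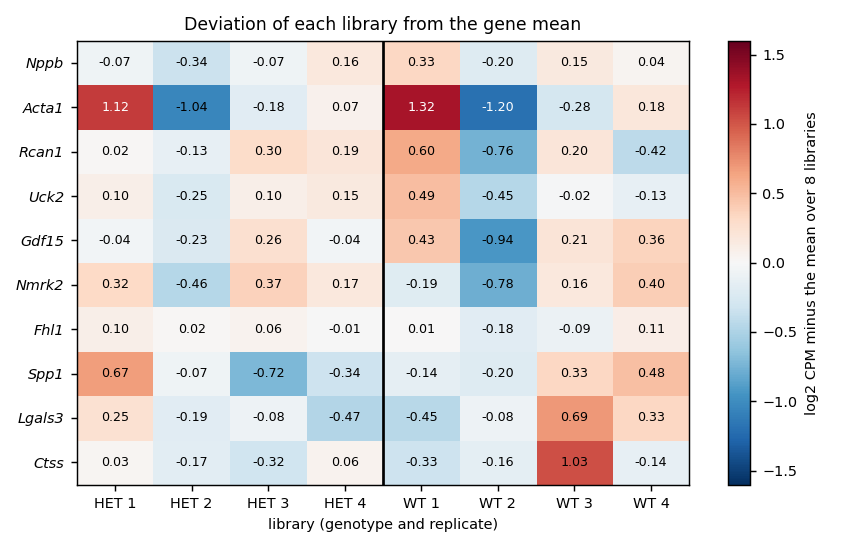
Deviation of log2 CPM in each library (columns, HET 1 to 4 and WT 1 to 4) from the gene's mean over 8 libraries, for the 10 genes (rows), with red above and blue below the mean. Acta1, Rcan1, Uck2 and Gdf15 are highest in WT replicate 1 (1.32, 0.60, 0.49 and 0.43) and lowest in WT replicate 2 (-1.20, -0.76, -0.45 and -0.94), and Ctss reaches 1.03 in WT replicate 3.

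Across the 8 libraries, which share their scaling and tissue makeup for every gene, Pearson's r of log2 CPM was above 0 for 36 of the 45 pairs of these genes, with a median of 0.37. The same figures for pairs of other genes were not computed. The pairs are not independent, since WT replicates 1 and 2 were the extremes for many of the genes. The highest pairs were Rcan1 and Uck2 (r = 0.91, Spearman's rho 0.79) and Acta1 and Uck2 (r = 0.86, rho 0.81). Without the 2 libraries farthest from the median of the first gene these became 0.90 and 0.81. For Nppb and Uck2 r was 0.79, and 0.59 on leaving out HET replicate 2 and WT replicate 1. For Nppb and Acta1 r was 0.69 (rho 0.69) and became 0.30 without the same libraries. It was 0.52 at the lowest when 1 library was left out. Leaving out the libraries farthest from the median narrows the range of the first gene, which by itself can lower r. Lgals3 and Ctss had r = 0.71, which was 0.22 without WT replicates 3 and 4 and 0.19 at the lowest when 1 library was left out. Between these and the actin and calcineurin genes r was lower, at -0.10 for Acta1 and Ctss and -0.25 for Rcan1 and Lgals3.

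The genes of most similar pattern, among 9844 or 9845 with a mean of at least 5 CPM, were found by the highest Pearson's r over the 8 libraries. Many genes reach a high r with 8 points, from 5 genes at 0.9 or more for Spp1 to 110 for Ctss. For Nppb the phospholipase gene Plce1 had r = 0.96. For Acta1 they were Snx24 (0.96) and Abca9 (0.95, rho 1), both of which varied far less (9.11 to 10.4 and 15.0 to 19.4 CPM). Rcan1 went with the exchange factor gene Rapgef1 and the importin gene Kpna3 (both 0.98), and 90 genes reached 0.9. Uck2 went with Sorbs2 and Enah, genes of the actin cytoskeleton (both 0.98), and Enah ran from 62.9 to 123.2 CPM. Gdf15 went with Cc2d1a and Rhbdf2 (both 0.96), and Fhl1 with Rtn4rl1 (0.94) and the endocytic adaptor gene Epn1 (0.93). Nmrk2 went with Zbtb16, a transcription factor gene induced by glucocorticoids (0.95, at 25.8 to 59.5 CPM), and Abhd1 (0.94). Ctss went with the proteasome activator gene Psme1 (0.99, rho 0.98, 102.2 to 216.0 CPM) and Stat2 (0.97, rho 0.79, 28.1 to 113.8 CPM), both known as interferon-induced. In WT replicate 3 Ctss lay 1.03 above its mean log2 CPM, against -0.33 to 0.06 in the other libraries. That library weighs heavily in the r values of Ctss, which were not computed without it. Lgals3 went with Prelid1 (0.93) and Lsm2 (0.92), and Spp1, at a few counts per library, with Get4 (0.94) and Fads1 (0.93).

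Ratios within a library, which need no scaling between libraries, gave no difference between genotypes either. For 8 ratios of a gene to a partner the exact two-sided permutation p-values ran from 0.371 (Lgals3 to Adgre1) to 1 (Acta1 to Actc1), and all 8 were 1 after Benjamini-Hochberg adjustment. The log2 ratio of Acta1 to Actc1 was -4.16 ± 0.78 in HET and -4.16 ± 1.06 in WT, and that of Nmrk2 to Nmrk1 0.45 ± 0.44 and 0.20 ± 0.72 (SD, n = 4 each). All 8 ratios overlapped between the groups.

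**Figure D5:**
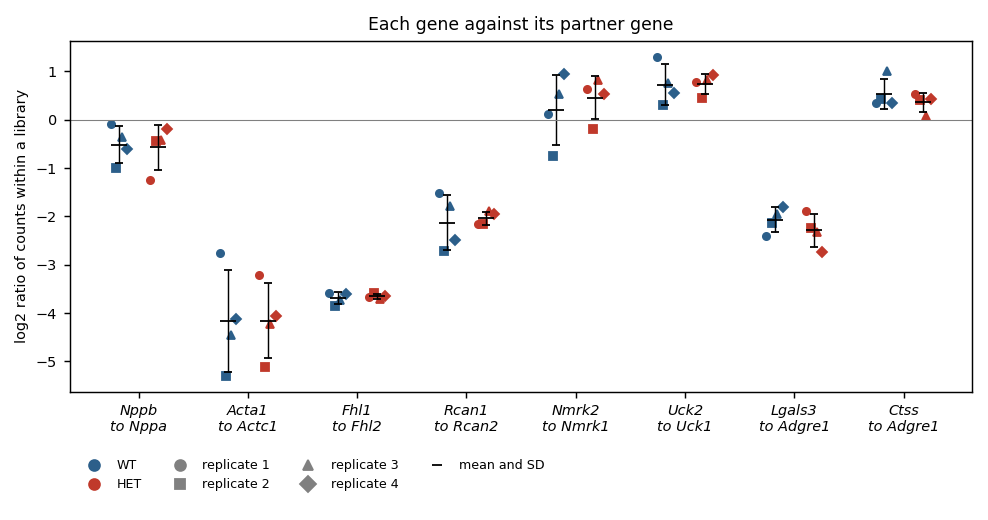
Log2 ratio of counts of each gene to its partner within a library (vertical axis) for 8 pairs (horizontal axis), WT in blue and HET in red, with the replicate shown by the symbol and the mean and SD in black. The groups overlap for all 8 pairs, with the tightest values for Fhl1 to Fhl2 and the widest for Acta1 to Actc1 (-5.30 to -2.76 in WT).

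The 6 digits that end the sample titles share their first 4 among HET replicates 1, 3 and 4 and WT replicate 1, and among HET replicate 2 and WT replicates 3 and 4, while those of WT replicate 2 are its own. What these digits mark is not given. Within the first of these sets, HET minus WT in log2 CPM was -0.32 for Nppb, -0.99 for Acta1, -0.37 for Gdf15 and -0.38 for Uck2. Within the second it was -0.44, -0.99, -0.51 and -0.17. Rcan1, at -0.43 and -0.02, was also below 0 in both. Fhl1 was at 0.04 and 0.01, and the other 4 differed in sign between the sets: Spp1 at 0.01 and -0.47, Nmrk2 at 0.48 and -0.74, Lgals3 at 0.35 and -0.70 and Ctss at 0.25 and -0.62. With the digits as a covariate the edgeR log2 fold changes were -0.37 for Nppb (SE 0.076), -0.28 for Uck2 (SE 0.071), -0.44 for Gdf15 (SE 0.177) and -0.93 for Acta1 (SE 0.430). Of the 10 genes 3 (Nppb, Uck2 and Gdf15) then had an unadjusted p below 0.05, where 4.95% of all genes did. None passed adjustment over all genes (edgeR adjusted p = 0.916 for Nppb and 0.966 for Uck2, Gdf15 and Acta1). Each set holds 1 sample of a genotype on one side. In the first set it is WT replicate 1, the highest of all libraries for Nppb, Acta1, Rcan1, Gdf15 and Uck2. In the second it is HET replicate 2, the lowest HET library for the same genes. The differences within each set thus rest on 1 such library, and the covariate fit draws on the same comparisons. WT replicate 2, the lowest in 6 of the 10 genes, has no HET counterpart and adds nothing to that comparison.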

How the data were processed

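Poly(A) RNA of ventricle was extracted with Trizol and made into stranded TruSeq libraries, per the labels' protocols. The authors deposited raw read counts per Ensembl gene, and per the submitters' processing notes STAR 2.4.2a, HTSeq 0.6.1 and GRCm38/mm10 were used. The annotation release and strand setting are not given in the sources used here. Positions and symbols came from GENCODE release M21 (36429 of 38293 genes matched), and promoters from RefSeq.

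Counts were filtered with filterByExpr, scaled by TMM and compared with the quasi-likelihood test of edgeR 4.0.16 (robust, no covariate, Benjamini-Hochberg over 14567 genes, threshold 0.05) in R 4.3.3. The fit was tested on simulated data. Log2 CPM used a prior count of 2, and ratios 0.5 added to each count. Single values were compared by exact permutation of 70 splits. Alternatives were other scalings and filters, DESeq2 1.42.0, limma-voom (limma 3.58.1), a covariate from title digits and leaving out each library. The limma-voom fit used quality weights, which give some libraries less weight than others.

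The genes and lists were chosen with earlier results of these data known. Genes named beside the 10 are Pkp2, Myh7, the ratio partners, the 2 of smallest p in each of 9 pathway lists and the 2 of highest r per gene, of which 1 is not reported here. 11 marker lists were summed for cell types. The sums for fibroblast (1014 to 1254 CPM in HET, 1080 to 1247 in WT), smooth muscle (1294 to 1410, 1260 to 1430), lymphocyte (8.88 to 10.3, 9.11 to 16.9) and monocyte and neutrophil (4.40 to 5.64, 3.82 to 8.60) genes overlapped between the groups, as did those for atrial (538 to 823, 601 to 652) and skeletal muscle (2640 to 2978, 2489 to 2787) genes.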

Additional observations from a re-analysis of the deposited data

Results flagged for a closer look

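Among 38 groups of 4 libraries checked (the 10 genes, the 8 ratios and the share of Acta1 in striated actin, in each genotype), 4 had a library whose gap to its nearest neighbour was a larger share of the group's range than Dixon's 95% critical value. Chance gives about 1 in 20, and the groups are not independent. In WT, replicate 2 was low in Gdf15 (log2 CPM 0.12 against 1.26 to 1.48, gap 0.839 of the range). In HET, replicate 2 was low in Uck2 (4.39 against 4.73 to 4.79, gap 0.865). In WT, replicate 3 was high in Ctss (4.88 against 3.52 to 3.71, gap 0.860) and in the log2 ratio of Ctss to Adgre1 (1.01 against 0.35 to 0.42, gap 0.891). Acta1, whose range was the widest, gave no such library in either genotype, since its values were spread over the whole range.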

How the results depend on the processing

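Under all 16 alternatives 0 of the 10 genes were called (lowest adjusted p 0.614), while Pkp2 was called in each (adjusted p at most 0.0392). Of 37 genes other than Pkp2 (the 10, Myh7, Atcayos, the ratio partners and the genes from pathway lists) none was called (lowest 0.280). The genes named for a similar pattern were not followed over the alternatives. The number of genes called was 1, and 13 with DESeq2, 2 without a filter on low counts and 1 to 3 on leaving out a library (3 without HET replicate 3). The sign of the log2 fold change held in all alternatives for Nppb, Fhl1 and Lgals3 and turned in at least 1 for the other 7. On leaving out a library the values ran from -0.60 to 0.53 for Acta1, -0.083 to 0.38 for Rcan1, -0.34 to 0.021 for Gdf15, -0.60 to 0.021 for Spp1, -0.0030 to 0.36 for Nmrk2, -0.11 to 0.23 for Uck2 and -0.45 to 0.11 for Ctss. Among other genes they ran from -0.48 to 0.58 for Myh7, -0.33 to 0.082 for Nppa, -0.075 to 0.039 for Actc1, -0.13 to 0.048 for Nmrk1 and -0.13 to 0.12 for Adgre1. Other turns of sign were with title digits as covariate (Rcan1 -0.25, Nmrk2 -0.088, Uck2 -0.28, Nmrk1 0.040), with library-size scaling (Uck2 -0.025, Myh7 -0.022, Uck1 -0.0068) and with limma-voom (Acta1 0.0018, Myh7 -0.041, Adgre1 0.022). Library-size scaling moved the median of all genes to -0.05. The causes of these turns were not tested. Spp1 did not pass the filter of 1 CPM and has no value there. Spp1 had 6 to 19 counts per library, with counting intervals that overlap between its lowest and highest library. No paired analysis was possible because the replicate numbers only follow the order of deposition. The title digits, which group samples of both genotypes in unequal numbers, were fitted as a covariate.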
